A study of Mus musculus with 16 samples.

Results

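Genes for lysosome acidification and for the lysosomal membrane and lumen were followed across macrophages of pancreatic tumors and of normal mouse pancreas. The members were all genes named Atp6v or Atp6ap on the array (25 genes, which code for the proton pump V-ATPase and its accessory proteins) and 15 further lysosomal genes (Lamp1, Lamp2, Cd63, Npc1, Npc2, Mcoln1, Tfeb, Tfe3, Gaa, Hexa, Glb1, Gusb, Neu1, Laptm5 and Psap). Cathepsins were not included. Of these 40 genes, 37 had a probe that stood well above background on 3 or more of the 16 arrays and were tested, among 24307 genes tested in all. The other members were Atp6v1g3, Atp6v0a4 and Atp6v1c2, whose probes were well above background on 0, 1 and 2 arrays. All of these subunits have a sister isoform that was measured.

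RNA was measured on one-color Agilent arrays in macrophages that had been sorted by flow cytometry. The sorting separated cells by YFP, a reporter that a Flt3-driven Cre recombinase turns on by removing a stop cassette; Flt3 is a receptor of early blood progenitors, and the reporter stays on in their descendants. There were 5 samples each of tumor YFP+ and tumor YFP- macrophages and 3 samples each of normal YFP+ and normal YFP- macrophages. The mice of every group were female, of strain C57/B6 and 8 to 10 weeks old. Their genotype entry reads "Not provided". The series text names wild-type, KPC (a genetic model of pancreatic cancer) and FLT3-CRE/LSL-YFP mice, whereas the treatment text speaks of implanted tumors, so that the tumor model of a given sample is unclear. Samples are named here by the number in their titles, which the labels do not tie to an animal. Nothing states that replicates came from separate mice, so p-values measure the spread between these samples only.

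The V-ATPase pumps protons into lysosomes and endosomes at the expense of ATP. Its cytosolic V1 sector hydrolyses ATP, and its membrane-bound V0 sector carries the protons across; several subunits exist as a widely used isoform and as isoforms restricted to certain tissues. The low pH activates the hydrolases of the lumen, while LAMP proteins line the membrane and channels such as mucolipin release ions. Many of these genes are known targets of the transcription factors TFEB and TFE3, which bind an E-box with the core letters CACGTG; the longer form TCACGTGA is typical of lysosomal promoters. Macrophages rely on this system to digest what they take up.

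Among the members that differed between tissues, Mcoln1 and Atp6v0e carry the letters TCACGTGA in their RefSeq promoters, and these are shown because the signal of one was lower and that of the other higher in tumor macrophages. The windows run from 250 bases before to 50 bases after the transcription start (build GRCm38.p6, both on the plus strand, at chr8:3500269-3500568 and chr17:26676146-26676445), with the match in capitals. The match starts 46 bases before the start of Mcoln1 and 2 bases after that of Atp6v0e.
Mcoln1: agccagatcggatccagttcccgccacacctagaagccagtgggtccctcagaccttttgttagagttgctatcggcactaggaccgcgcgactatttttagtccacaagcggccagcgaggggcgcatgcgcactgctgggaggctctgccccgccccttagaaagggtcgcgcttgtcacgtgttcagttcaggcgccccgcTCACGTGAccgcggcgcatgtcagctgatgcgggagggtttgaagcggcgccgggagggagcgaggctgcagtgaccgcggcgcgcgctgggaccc
Atp6v0e: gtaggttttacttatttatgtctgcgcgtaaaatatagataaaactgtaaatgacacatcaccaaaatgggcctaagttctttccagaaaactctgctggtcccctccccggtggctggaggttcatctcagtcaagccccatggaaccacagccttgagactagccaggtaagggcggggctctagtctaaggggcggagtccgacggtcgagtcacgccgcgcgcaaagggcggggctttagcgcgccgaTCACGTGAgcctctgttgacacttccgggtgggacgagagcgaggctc
A promoter was found by symbol for 32 of the 40 members. Of the members called between tissues, Atp6v0d2 and Atp6v1c1 had none and so were not searched. The letters TCACGTGA, which read the same on both strands, were in the promoter of 4 of these 32 genes (12.5%), namely Mcoln1, Atp6v0e, Atp6v0d1 and Atp6v1a, against 1.12% of the 27025 genes with a promoter. The shorter CACGTG, also its own reverse complement and contained in the longer letters, was in the promoter of 8 of the 32 members (25.0%) and of 8.09% of all genes. Beyond the same 4 genes it was found in Atp6v0b, Gaa, Glb1 and Lamp1. A match describes these letters in these windows only. Tfeb and Tfe3, the factors themselves, held neither.

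All values below are log2 signals relative to the 75th percentile of the array, so that 0 stands for that percentile, and differences are log2 differences from limma with their standard error (SE). A gene is called changed where its Benjamini-Hochberg adjusted p over all 24307 genes was below 0.05. The 75th percentile ran from 2167 to 3388 intensity units over the arrays, and 64.9% to 75.4% of the spots were well above background. In tumors this percentile ran from 2911 to 3388 in YFP+ and from 2167 to 2853 in YFP- samples, without overlap. In normal pancreas the ranges of 2824 to 3279 and 2289 to 3190 overlapped. The part of array brightness in the YFP differences was not tested. The number of arrays limits the precision: the members had a median SE of 0.20 for YFP+ against YFP- in tumors, 0.26 for the same in normal pancreas and 0.23 for tumor against normal. Macrophage markers (15 genes such as Csf1r, Adgre1 and C1qa, all well above background on all arrays) had a mean signal of 3.70 to 4.70 over the 16 arrays. Single markers did differ between tissues. In tumor YFP+ macrophages 0 of the 15 were called higher and 2 lower, and in tumor YFP- macrophages 1 higher and 2 lower. Adgre1 had means of 2.84 (YFP+) and 2.95 (YFP-) in tumors, against 3.81 and 4.00 in normal pancreas. Markers of other cells differed between the groups: the mean signal of 16 acinar genes was between -2.46 and -1.83 in tumor YFP+ and between -2.06 and -0.89 in tumor YFP- samples, against 3.22 to 3.68 (normal YFP+) and 3.65 to 4.96 (normal YFP-). The 15 fibroblast and stellate cell genes had means of -3.52 to -2.56, 0.44 to 1.18, -3.16 to -1.76 and -2.46 to 0.39 in the same order. Of other blood cell genes, 9 of 10 mast cell, 7 of 11 neutrophil and 5 of 13 B and plasma cell genes were called higher in tumor YFP- macrophages. In tumor YFP+ macrophages 2, 5 and 7 were higher, and 1 B and plasma cell gene was lower in YFP-. Of 13 dendritic cell genes 3 were higher and 2 lower in each population. Of 11 T and NK cell genes 0 were called in YFP+ and 1, lower, in YFP- macrophages. Of all genes 12.3% (YFP+) and 16.1% (YFP-) were called between tissues in either direction. The mast cell mean was 0.60 in tumor YFP- and -3.51 in normal YFP- samples, and the neutrophil mean 0.96 and -2.33. In such bulk samples fewer cells of a type and less RNA per cell cannot be told apart. The part of other cells in the differences below was not tested.

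The comparison of tumor with normal macrophages asks how the lysosome program of the same labelled population differs between the tissues. In YFP+ macrophages Atp6v0d2, Neu1 and Gusb were higher in tumors and Mcoln1 was lower. In YFP- macrophages these same 4 genes were called in the same directions, together with Atp6v1c1 and Atp6v0e (higher) and Atp6v1g2 (lower). The differences ran from 0.49 (Atp6v0e, YFP-) to 1.98 (Atp6v0d2, YFP+) upwards and from -1.19 (Atp6v1g2, YFP-) to -1.61 (Mcoln1, YFP+) downwards.
In counts, 4 of the 37 tested members (10.8%) were called in YFP+ macrophages, 3 higher and 1 lower, against 12.3% of all genes. In YFP- macrophages 7 of the 37 (18.9%) were called, 5 higher and 2 lower, against 16.1% of all genes. The shares of called members were thus near those of all genes, and what follows describes single genes. The counts moved with single arrays: the YFP+ count was 2 without the YFP+ array tumor 23677, normal 23912 or normal 23917, and the YFP- count was 4 without the YFP- array tumor 23547 or tumor 23550 and 3 without normal 23916. The median difference of the 37 members was 0.12 in YFP+ and 0.18 in YFP- macrophages. That of all genes was -0.07 and -0.19, and other ways of scaling moved the latter to as much as 0.03. Over 5 ways of scaling and background correction the members' own median ran from 0.04 to 0.25 in YFP+ and from 0.08 to 0.38 in YFP- macrophages.
The arrays lay on 4 slides, each scanned as a batch, and for each population 3 slides held both tissues. Within these slides the difference of Atp6v0d2 ran from 1.26 to 2.29 in YFP+ and from 0.76 to 2.15 in YFP- macrophages, and that of Mcoln1 from -1.99 to -0.85 and from -1.66 to -1.45. Neu1 ran from 0.45 to 0.89 and from 0.36 to 0.90, and Gusb from 0.42 to 0.83 and from 0.35 to 0.72. In YFP- macrophages Atp6v1c1 ran from 0.28 to 1.14, Atp6v0e from 0.36 to 0.57 and Atp6v1g2 from -1.85 to -0.17. All called differences thus had the same direction on every such slide. These are the arrays that made the calls, so this is not an independent check. Members that were not called, such as Atp6v0c, Atp6v1a, Atp6v1d and Cd63, also kept their direction on all 3 slides in both populations.

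**Figure D1:**
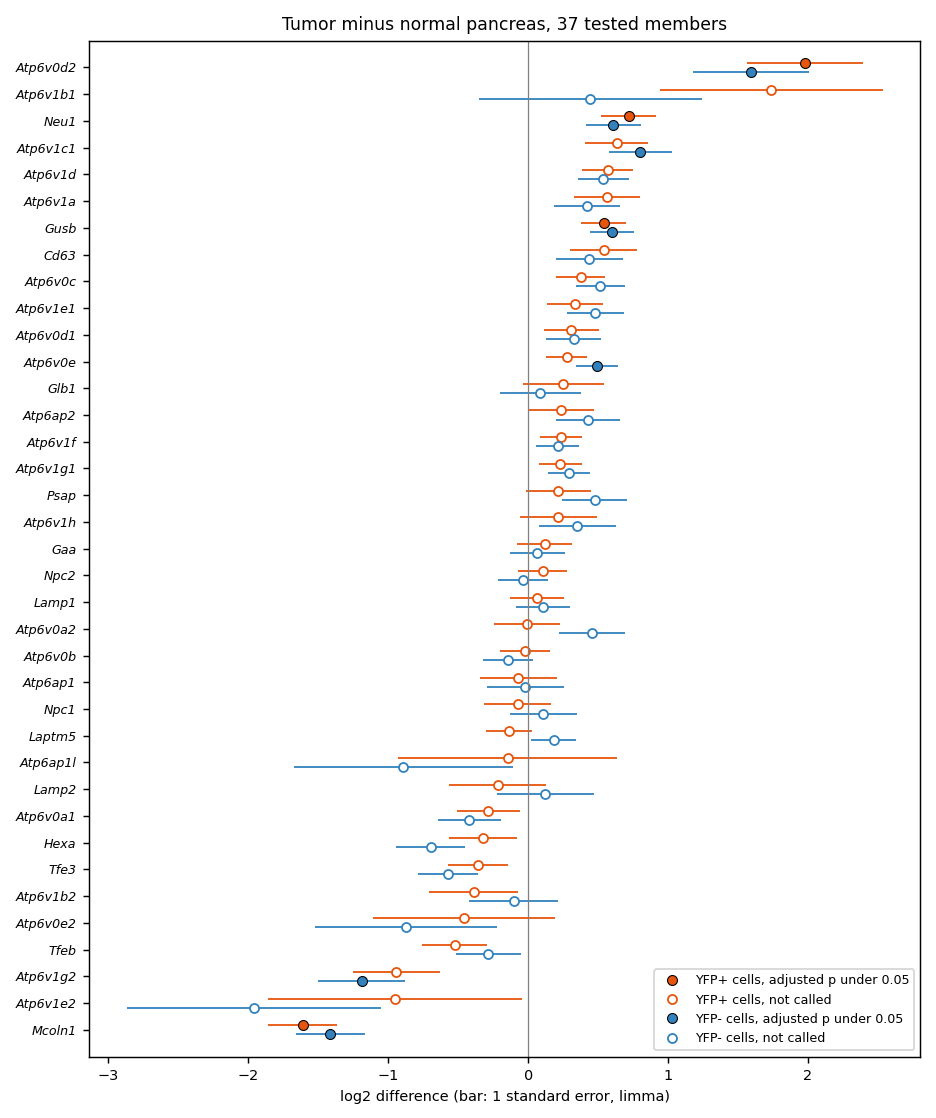
Log2 difference of tumor minus normal pancreas (x axis) for the 37 tested members (y axis), in YFP+ (orange) and YFP- (blue) macrophages, with 1 SE as the bar. Filled points passed an adjusted p of 0.05 (4 in YFP+ and 7 in YFP- macrophages); among called members Atp6v0d2 lies at the high end and Mcoln1 at the low end, and the lowest YFP- point is Atp6v1e2 at -1.96, which was not called.

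Among the V0 genes, Atp6v0d2 showed the highest difference. It codes for the restricted isoform of subunit d, which joins the central stalk to the membrane ring and is best known from osteoclasts. Its signal was 0.15, 1.30, 1.42, 1.75 and 2.10 in the tumor YFP+ samples and -1.10, -0.54 and -0.26 in the normal YFP+ samples. In the YFP- samples it was 0.85, 0.95, 1.14, 1.75 and 1.86 in tumors and -0.93, -0.29 and 0.38 in normal pancreas. The tissues did not overlap in either population, although tumor YFP+ sample 23550 at 0.15 lay below normal YFP- sample 23917 at 0.38. The difference was 1.98 ± 0.41 (SE; limma adjusted p = 0.00498), a 3.94-fold higher signal, in YFP+ macrophages, and 1.59 ± 0.41 (adjusted p = 0.0164), 3.02-fold, in YFP- macrophages. Another probe of Atp6v0d2 was well above background on 12 of the 16 arrays, with 0 of 3 in normal YFP+ and 2 of 3 in normal YFP- samples. In YFP+ macrophages this other probe gives only a bound on the group means, with a tumor mean at least 6.15-fold higher. The bound sets the tumor mean against the lowest signal well above background on each normal array, or the probe's own where that was higher. It leaves out the spread between samples (SD 0.82 over the tumor YFP+ samples). It also lies above the 3.94-fold of the probe used, so the size of the difference depended on the probe. The probes lie at chr4:19805367-19805426 (used) and chr4:19804304-19804363 on build mm9, minus strand. Of 10 osteoclast-type genes 9 were tested, and 5 were called higher in tumors in each population and 0 lower, against 12.3% (YFP+) and 16.1% (YFP-) of all genes called in either direction. The list was mixed: Acp5 had a mean of 4.24 in tumor YFP+ and -0.63 in normal YFP+ samples, while Tnfrsf11a, the RANK receptor, had -1.42 and -0.73, and Oscar 0.08 and 0.33. Their mean signal was between 0.68 and 1.55 and between 0.28 and 1.44 for the tumor YFP+ and YFP- samples, against -1.11 to -0.67 and -1.20 to -0.68 for the normal ones; Calcr, which marks the mature osteoclast, was not well above background on any array.

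The widely used isoform Atp6v0d1 lay between 3.22 and 3.59 in tumor YFP+ and between 2.98 and 3.58 in tumor YFP- samples, against 2.69, 3.21 and 3.30 (normal YFP+) and 2.50, 2.96 and 3.10 (normal YFP-). The tissues overlapped in both populations, and the differences of 0.31 ± 0.20 and 0.33 ± 0.20 were not called (adjusted p = 0.394 and 0.283). Atp6v0e, for the small subunit e, was at 2.80, 3.002, 3.02, 3.06 and 3.14 in tumor YFP- and at 2.38, 2.49 and 2.66 in normal YFP- samples, with no overlap. Its difference was 0.49 ± 0.15 (limma adjusted p = 0.0350), or 1.41-fold. In YFP+ macrophages Atp6v0e ranged from 2.96 to 3.30 in tumors and from 2.73 to 3.02 in normal pancreas, with overlap, and its difference of 0.27 ± 0.15 was not called. The YFP- call of Atp6v0e was made in 17 of 35 alternative settings, which included leaving out arrays.
The other V0 genes code for the proteolipids of the rotating ring (Atp6v0c and Atp6v0b), the large subunit a (Atp6v0a1 and Atp6v0a2) and the second isoform of subunit e (Atp6v0e2). None of these 5 was called in either population. Atp6v0c came nearest at 0.51 ± 0.17 in YFP- macrophages (adjusted p = 0.0595), and Atp6v0a1 pointed lower at -0.28 ± 0.23 and -0.42 ± 0.23.

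**Figure D2:**
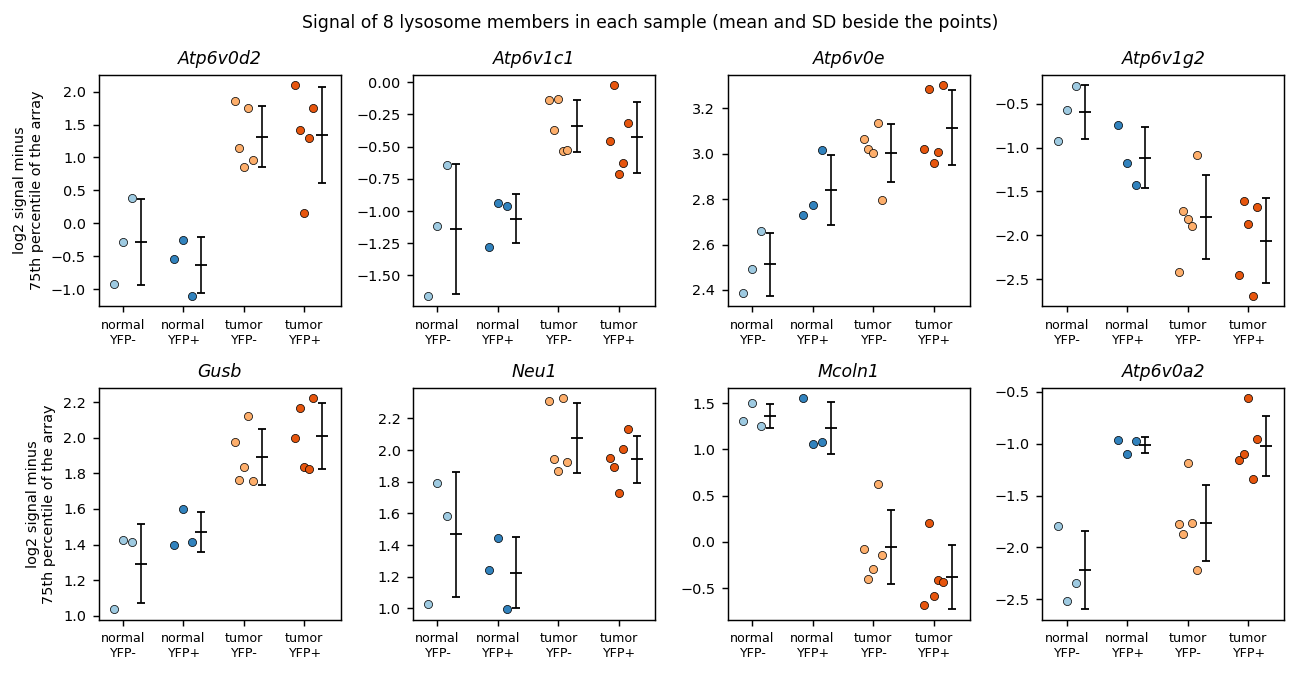
Log2 signal relative to the 75th percentile of the array (y axis; each panel has its own range) in the 4 groups (x axis) for the 7 members called between tissues and for Atp6v0a2. Each point is a sample and the bar is the mean with its SD; Mcoln1 is above 1 in all 6 normal samples and at or below 0.63 in all 10 tumor samples.

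Among the V1 genes, Atp6v1c1 was higher and Atp6v1g2 lower in tumor YFP- macrophages. Atp6v1c1 codes for the C subunit, which holds V1 and V0 together and is lost when the pump is taken apart. It was at -0.54, -0.52, -0.37, -0.14 and -0.13 in tumor YFP- samples and at -1.66, -1.12 and -0.65 in normal YFP- samples, a difference of 0.80 ± 0.23 (limma adjusted p = 0.0258) or 1.74-fold. The groups did not overlap. In YFP+ macrophages, where tumor samples lay between -0.72 and -0.02 and normal ones between -1.28 and -0.94, the difference of 0.63 ± 0.23 was not called (adjusted p = 0.0880).
Atp6v1g2 codes for a G isoform of the peripheral stalk that is known from neurons. It was at -2.42, -1.89, -1.82, -1.72 and -1.08 in tumor YFP- samples and at -0.92, -0.57 and -0.30 in normal ones, so that all tumor samples were lower. The difference was -1.19 ± 0.31 (limma adjusted p = 0.0175), a 2.28-fold lower signal. In YFP+ macrophages it was -0.94 ± 0.31 and not called (adjusted p = 0.0637), with tumor samples between -2.69 and -1.61 and normal ones between -1.42 and -0.74.
Of the other 9 tested V1 genes none was called in either population. Of these, Atp6v1a (the catalytic A subunit), Atp6v1d (the rotor shaft), Atp6v1e1 and Atp6v1g1 (peripheral stalk), Atp6v1f and Atp6v1h had positive differences in both, from 0.21 to 0.57. Atp6v1d came nearest, at 0.57 ± 0.18 in YFP+ (adjusted p = 0.0588) and 0.54 ± 0.18 in YFP- macrophages (adjusted p = 0.0613). Atp6v1b2, the widely used B isoform, had differences of -0.39 ± 0.32 and -0.10 ± 0.32. Its kidney-type sister Atp6v1b1 and the E isoform Atp6v1e2 were well above background on 11 arrays each, and their differences were not called, at 1.74 ± 0.80 and 0.44 ± 0.80 for Atp6v1b1 and -0.95 ± 0.91 and -1.96 ± 0.91 for Atp6v1e2. The accessory genes Atp6ap1, Atp6ap2 (the prorenin receptor) and Atp6ap1l were not called, with differences between -0.89 and 0.43.

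Isoforms of one subunit can be set against each other within an array. The signal of Atp6v0d2 minus that of Atp6v0d1 was -2.03 ± 0.66 (SD, n = 5) in tumor YFP+ and -3.70 ± 0.61 (SD, n = 3) in normal YFP+ samples, an exact two-sided permutation p of 0.0179 and a Benjamini-Hochberg p of 0.0716. This is the smallest p that 5 against 3 samples allow. Atp6v1g2 minus Atp6v1g1 was -4.07 ± 0.52 in tumor YFP- and -2.60 ± 0.03 in normal YFP- samples, with the same pair of p-values in the exact permutation test. Over 7 isoform pairs and 4 comparisons 28 such tests were run, chosen after the values had been seen, and none passed 0.05 after adjustment. The tests of 3 against 3 samples in normal pancreas allow no p below 0.1 and could not pass. With these smallest p-values the tests cannot decide whether the isoforms shifted.

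**Figure D3:**
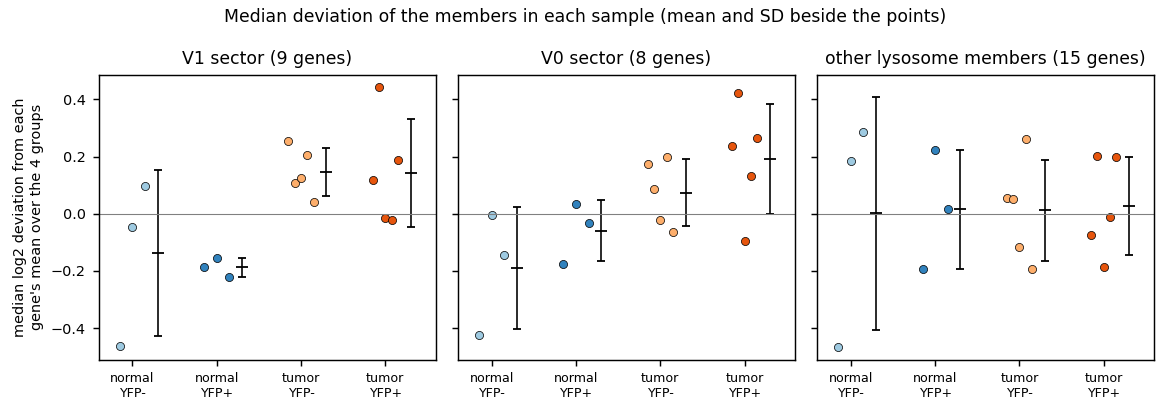
Median log2 deviation (y axis) of the V1 genes, the V0 genes and the other lysosomal members from each gene's own mean over the 4 groups, in every sample (points; bars are the mean and SD of the samples), for genes well above background on all 16 arrays. Normal YFP- sample 23912 is the lowest in all 3 panels, at -0.46, -0.42 and -0.47.

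Samples of one group also differed from each other across many members at once. Over the 9 V1 genes that were well above background on all arrays, the median deviation from each gene's own mean lay between 0.04 and 0.26 in tumor YFP- samples and between -0.02 and 0.44 in tumor YFP+ samples, against -0.22 to -0.15 (normal YFP+) and -0.46, -0.05 and 0.10 (normal YFP-). The 8 V0 genes had medians of -0.06 to 0.20, -0.10 to 0.42, -0.18 to 0.03 and -0.42 to -0.00 in the same order. For the 15 other members the 4 ranges overlapped broadly, with group medians of 0.05, -0.01, 0.02 and 0.19. Normal YFP- sample 23912 was the lowest of all 16 arrays for each of these sets, with 75.4% of its spots well above background, the highest share of any array. Without it 6 members were called in YFP+ and 5 in YFP- macrophages.

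Of the hydrolases, Gusb and Neu1 were higher in tumors in both populations. Gusb, beta-glucuronidase, cleaves glucuronic acid from glycosaminoglycans. It was at 1.82, 1.83, 1.9998, 2.17 and 2.22 in tumor YFP+ and 1.39, 1.41 and 1.60 in normal YFP+ samples. In YFP- macrophages it was at 1.75, 1.76, 1.84, 1.98 and 2.12 in tumors against 1.04, 1.41 and 1.43 in normal pancreas. No normal sample reached any tumor sample. The differences were 0.54 ± 0.16 (limma adjusted p = 0.0390) and 0.60 ± 0.16 (adjusted p = 0.0195), that is 1.45-fold and 1.51-fold. The YFP+ call was made in 19 of the 35 alternative settings and the YFP- call in 30.
Neu1, the lysosomal sialidase, was at 1.73, 1.89, 1.95, 2.01 and 2.14 in tumor YFP+ and 0.996, 1.24 and 1.44 in normal YFP+ samples, a difference of 0.72 ± 0.20 (limma adjusted p = 0.0256) or 1.64-fold. In YFP- macrophages it was at 1.87, 1.93, 1.95, 2.31 and 2.33 in tumors and 1.03, 1.58 and 1.79 in normal pancreas. That difference of 0.61 ± 0.20 stood just inside the threshold (limma adjusted p = 0.0476), and the tissues did not overlap. It was called in 9 of the 35 alternative settings, and the YFP+ difference in 26.
Hexa (a beta-hexosaminidase subunit), Gaa (acid alpha-glucosidase), Glb1 (beta-galactosidase) and Psap (the precursor of the saposins) were not called. Hexa pointed the other way from Gusb and Neu1, at -0.32 ± 0.24 and -0.70 ± 0.24 (adjusted p = 0.491 and 0.0668). Gaa had differences of 0.12 ± 0.20 and 0.06 ± 0.20.

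Mcoln1 codes for mucolipin, a channel that releases calcium from lysosomes. By the probe used it was at -0.69, -0.58, -0.44, -0.41 and 0.20 in tumor YFP+ and 1.06, 1.08 and 1.55 in normal YFP+ samples. In YFP- macrophages it was at -0.40, -0.30, -0.14, -0.08 and 0.63 in tumors and 1.26, 1.31 and 1.504 in normal pancreas. All normal samples were above all tumor samples. The difference was -1.61 ± 0.25 (limma adjusted p = 5.44e-04), a 3.06-fold lower signal, in YFP+ macrophages, and -1.41 ± 0.25 (adjusted p = 0.00126), 2.67-fold, in YFP- macrophages.
The other probe of Mcoln1 showed much less. It lay between -0.25 and 0.16 in tumor YFP+ samples, just below the normal YFP+ values of 0.19, 0.22 and 0.41. In YFP- macrophages it lay between -0.19 and 0.64 in tumors and overlapped the normal values of 0.38, 0.43 and 0.94. Its differences of -0.32 ± 0.20 and -0.33 ± 0.20 were not called in a fit over all 30602 probes (limma adjusted p = 0.378 and 0.283), whereas those of the probe used were. The probe used lies at chr8:3513500-3513559 and is annotated to a cDNA clone; the other lies downstream at chr8:3515110-3515169 and is annotated to the RefSeq transcript (both build mm9, plus strand, well above background on all 16 arrays). With the mean of both probes the differences were -0.96 and -0.87 (adjusted p = 0.00308 and 0.00543). The probe used had the higher mean over all arrays (0.35 against 0.23), but only through the normal samples: in tumor YFP+ samples its mean was -0.38 and that of the other probe -0.04. The choice of probe was thus not independent of the difference, which with the other probe alone was not called.

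**Figure D4:**
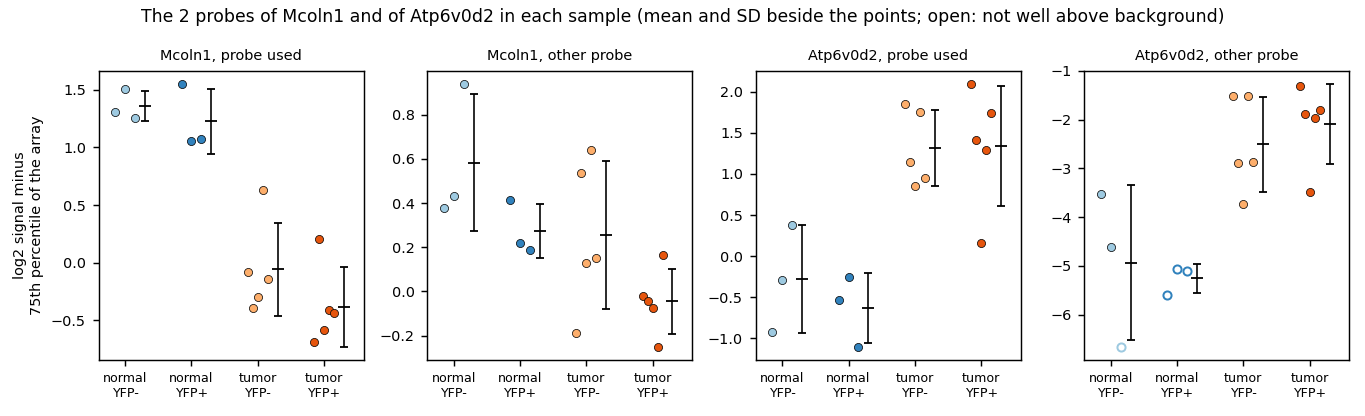
Log2 signal relative to the 75th percentile of the array (y axis; each panel has its own range) of both probes of Mcoln1 and both of Atp6v0d2 in the 4 groups (x axis), with a point per sample and the mean with SD as a bar. Open points were not well above background. The tissues are apart on the used probe of Mcoln1 and overlap among YFP- samples on its other one; the other probe of Atp6v0d2 has open points on all 3 normal YFP+ arrays.

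Lamp1, Lamp2, Cd63, Npc1, Npc2 and Laptm5 were not called between tissues in either population. Lamp1, the most used lysosome marker, lay between 4.84 and 5.16 in tumor YFP+ and between 4.98 and 5.56 in tumor YFP- samples, against 4.89 to 4.96 (normal YFP+) and 4.67, 5.33 and 5.54 (normal YFP-). Its tissue differences were 0.06 ± 0.19 and 0.10 ± 0.19, with 95% confidence intervals of -0.35 to 0.47 and -0.31 to 0.52. Lamp2 was at 1.59 to 2.70, 1.96 to 2.40, 2.07 to 2.39 and 0.97, 2.58 and 2.66 in the same order, so that normal YFP- sample 23912 lay lowest. Its differences of -0.22 ± 0.35 and 0.12 ± 0.35 were not called. The tetraspanin gene Cd63 had differences of 0.54 ± 0.24 and 0.44 ± 0.24. Npc1 and Npc2, which pass cholesterol out of the lysosome, and Laptm5, a membrane protein of blood cells, lay between -0.14 and 0.18 in both populations.

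Neither of the transcription factors was called. Tfeb was at -1.76, -1.54, -1.50, -1.35 and -0.98 in tumor YFP+ and -1.24, -0.86 and -0.61 in normal YFP+ samples, and at -2.20, -2.11, -1.81, -1.42 and -1.39 in tumor YFP- and -1.62, -1.49 and -1.38 in normal YFP- samples. The tissues overlapped in both populations, and the differences were -0.52 ± 0.23 and -0.28 ± 0.23 (limma adjusted p = 0.181 and 0.424). Tfe3 lay between 3.30 and 3.59 in tumor YFP+ samples, against normal YFP+ values of 3.45, 3.84 and 3.94. Among YFP- samples it lay between 2.81 and 3.36 in tumors, against 3.15, 4.05 and 4.09 in normal pancreas, so that the tissues overlapped in both populations. Its differences were -0.36 ± 0.22 and -0.57 ± 0.22 (adjusted p = 0.357 and 0.0885).

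The comparison of YFP+ with YFP- macrophages asks whether cells with and without the reporter of the Flt3-driven Cre differ in these genes. By limma 0 of the 37 members were called in tumors, against 2.41% of all genes, and 0 in normal pancreas, against 0.0206% of all genes. At an unadjusted p below 0.05 there were 1 and 3 members. The shares of all genes given here are for the adjusted p, so these counts cannot be read as an excess. For the difference of the YFP differences between the tissues no member was called by limma either (0 of 37, 0 at an unadjusted p below 0.05; 0.103% of all genes called).
Atp6v0a2 came nearest in both tissues. It codes for an isoform of the proton-conducting subunit a that is known from endosomes and the Golgi. Its signal was -1.34, -1.16, -1.09, -0.95 and -0.56 in tumor YFP+ and -2.21, -1.87, -1.77, -1.77 and -1.19 in tumor YFP- samples, and -1.10, -0.97 and -0.96 in normal YFP+ and -2.52, -2.34 and -1.79 in normal YFP- samples. The populations overlapped in tumors through YFP- sample 23550 and were apart in normal pancreas. The differences were 0.74 ± 0.21 (limma adjusted p = 0.0899) and 1.21 ± 0.27 (adjusted p = 0.124). Without tumor YFP- sample 23550 or normal YFP- sample 23912, 1 member, Atp6v0a2, was called in that tissue. Within slides that held both populations, the YFP+ sample mean of Atp6v0a2 was higher on 4 of 4 slides in tumors and on 2 of 2 in normal pancreas. The same held for Psap and Tfeb, and in tumors also for Atp6v0d1, Atp6v1b1, Hexa and Tfe3, none of which was called. Psap and Tfeb also had positive differences in both tissues, at 0.43 ± 0.20 and 0.69 ± 0.26 for Psap and 0.36 ± 0.20 and 0.60 ± 0.26 for Tfeb, and were not called. Lamp1 had -0.29 ± 0.17 and -0.25 ± 0.22. For Atp6v0d2, Neu1, Gusb and Mcoln1, which differed between tissues, the YFP differences lay between -0.35 and 0.18.

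**Figure D5:**
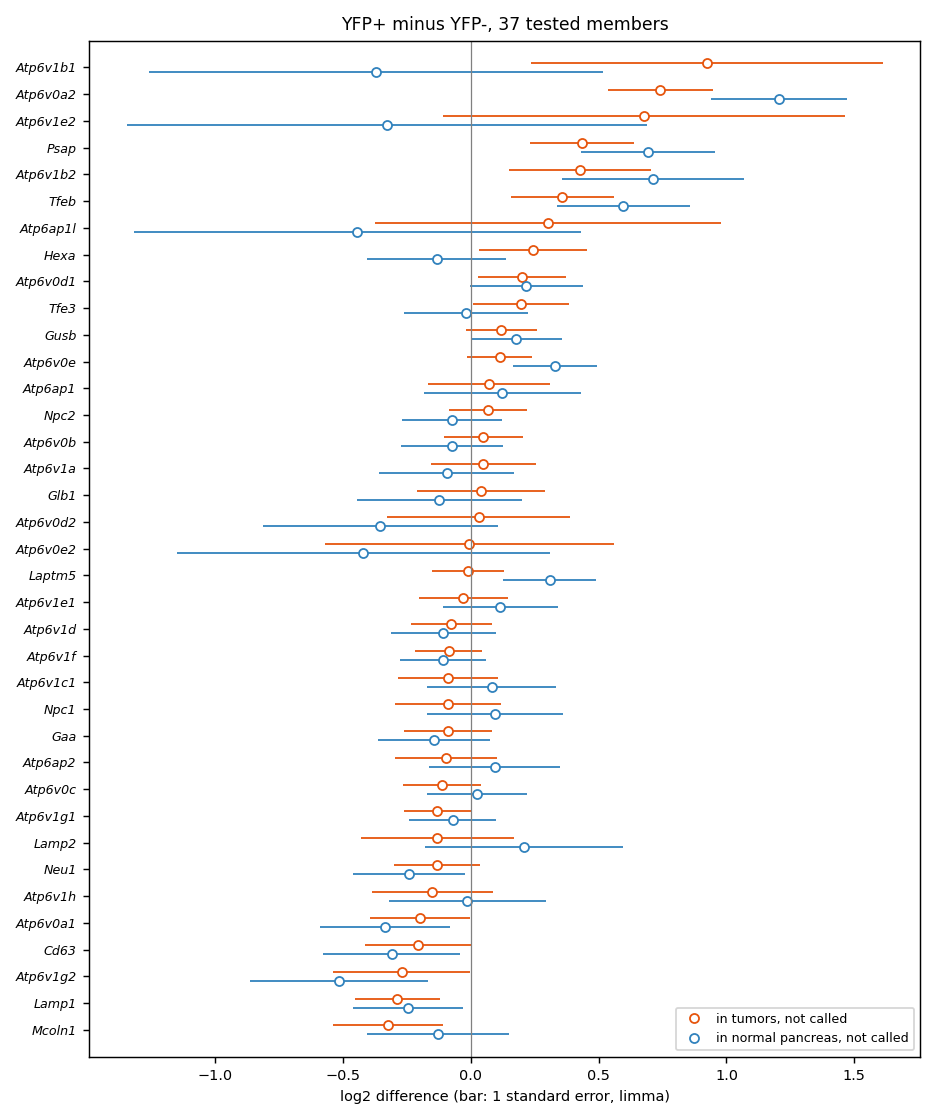
Log2 difference of YFP+ minus YFP- (x axis) for the 37 tested members (y axis), in tumors (orange) and normal pancreas (blue), with 1 SE as the bar. All points are open, since no member passed an adjusted p of 0.05; Atp6v0a2 is at 0.74 and 1.21.

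Both populations and both tissues were also averaged from the same fit, a choice made after the values had been seen. The members' differences of the YFP differences ran from -0.46 to 1.29 with a median SE of 0.33, so that equal YFP effects in the tissues were not shown. Averaged over the tissues, Atp6v0a2 was higher in YFP+ macrophages by 0.97 ± 0.17 (limma adjusted p = 0.00842), or 1.96-fold. It was the only one of 37 members called (2.70%), against 2.31% of all genes. It was not called without both arrays of 23916 or of 23917, and without normal YFP+ sample 23912 the count was 2. In that comparison 4 of 13 B and plasma cell genes and 2 of 13 dendritic cell genes were also higher in YFP+ macrophages and 0 lower, with median differences of 0.78 and 0.71. Lower in YFP+ and never higher were 13 of 15 fibroblast and stellate genes, 6 of 14 ductal genes, 4 of 10 mast cell genes and 3 of 16 acinar genes. Psap (0.56 ± 0.17, adjusted p = 0.109) and Tfeb (0.48 ± 0.16, adjusted p = 0.193) were not called.
Averaged over the populations, 14 of the 37 members were called between tissues (37.8%), 10 higher and 4 lower in tumors, against 26.7% of all genes. In addition to the 7 genes above these were Atp6v1d (0.55 ± 0.13), Atp6v0c (0.44 ± 0.12), Atp6v1a (0.49 ± 0.17), Atp6v1e1 (0.41 ± 0.14) and Cd63 (0.49 ± 0.17), all higher, and Tfe3 (-0.47 ± 0.15) and Hexa (-0.51 ± 0.17), both lower. The other probe of Atp6v1a, Tfe3 and Mcoln1 was not called in this comparison in the fit over all 30602 probes. It gave 0.40, -0.45 and -0.32 (limma adjusted p = 0.0939, 0.0718 and 0.11), while the other probe of Atp6v0d2 was called. By sector, 4 V1 genes rose and 1 fell of 11 tested, 3 V0 genes rose of 8 tested, and 3 rose and 3 fell of the 15 other members. The adjusted p of Hexa, Atp6v1a, Cd63 and Atp6v1e1 lay between 0.0410 and 0.0470, and the count was 9 without tumor YFP- sample 23550, normal YFP+ sample 23917 or tumor YFP+ sample 23547, or without both arrays of 23547, 23548, 23551, 23916 or 23917. The median difference was 0.28 for the V1 genes, 0.27 for the V0 genes and 0.03 for the other members, against -0.14 for all genes. Over 5 ways of scaling and background correction the V1 median ran from 0.24 to 0.45 and the V0 median from 0.22 to 0.43, while that of the other members ran from -0.10 to 0.20 and so changed sign. Of the 16 acinar genes 14 were lower in tumors and 0 higher, and of 14 ductal genes 9 were higher and 1 lower. Of the 15 macrophage genes 1 was higher and 4 were lower.

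Other genes of the lysosome pathway were read from the same fit, as 5 lists of 153 tested genes with no overlap with the members. By tissue 9 were higher and 9 lower in tumor YFP+ macrophages, and 15 higher and 10 lower in tumor YFP- macrophages. These are 11.8% and 16.3% of the pathway genes, near the 12.3% and 16.1% of all genes. By population 0 were called in either tissue by limma, with 6 and 8 at an unadjusted p below 0.05. These last counts have no share of all genes beside them and cannot be read as an excess.
Around the V-ATPase (13 genes tested) Tcirg1, the a3 isoform of osteoclasts and macrophages, was higher in tumors by 0.72 ± 0.17 in YFP+ (limma adjusted p = 0.0113) and 0.92 ± 0.17 in YFP- macrophages (adjusted p = 0.00194). Dmxl2, a subunit of the complex that assembles the pump, was higher by 2.03 ± 0.52 in YFP- macrophages, and no gene of this list was called lower in either population, although 4 of the 13 had negative differences in each. Averaged over the populations, 4 of these 13 genes were called higher and 1 lower, against 26.7% of all genes called in either direction.
Among 27 genes of the MiT/TFE factors and their control, 3 were higher and 3 lower in YFP+, and 3 higher and 2 lower in YFP- macrophages. Tfec, the factor of this family found in macrophages, was higher by 2.33 ± 0.32 and 1.86 ± 0.32, and its family's target Gpnmb by 1.63 ± 0.24 and 2.03 ± 0.24. Rheb, which activates mTORC1, was higher by 0.80 ± 0.17 and 0.58 ± 0.17. Flcn (folliculin) was lower, with differences of -0.98 ± 0.27 and -0.95 ± 0.27, and so was Tsc1, a brake on mTORC1, with -0.89 ± 0.27 and -0.90 ± 0.27.
The 45 other hydrolases and activators held the most extreme gene, Acp5, the tartrate-resistant acid phosphatase, which was higher in tumors by 4.87 ± 0.34 and 5.17 ± 0.34 (limma adjusted p = 3.71e-07 and 1.93e-07). Ifi30, a thiol reductase of antigen processing, was higher by 0.68 ± 0.13 and 1.09 ± 0.13. Arsb (arylsulfatase B) was lower, with differences of -1.88 ± 0.25 and -1.99 ± 0.25, as was Ids (iduronate sulfatase) with -1.23 ± 0.30 and -1.03 ± 0.30. The list's median was 0.00 and -0.02.
Of 39 further membrane proteins and transporters 1 was higher and 2 lower in YFP+ and 2 higher and 2 lower in YFP- macrophages, led by the peptide transporter Slc15a3 at 1.55 ± 0.24 and 1.58 ± 0.24 and the nucleoside transporter Slc29a3 at -0.95 ± 0.24 and -0.84 ± 0.24. Of 29 sorting genes 2 were higher and 2 lower in YFP+ and 5 higher and 2 lower in YFP- macrophages. Here M6pr, a mannose 6-phosphate receptor, was higher by 0.69 ± 0.18 and 0.77 ± 0.18, Arl8b, which moves lysosomes outwards, by 0.87 ± 0.19 and 0.64 ± 0.19, and Rilp, which moves them inwards, was lower, with differences of -1.04 ± 0.24 and -1.38 ± 0.24.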

How the data were processed

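The authors deposited scanner files that hold intensity values of the red (Cy5) channel, made with Agilent Feature Extraction 11.5.1.1 per the submitters' processing notes; per the file headers the processed signal is background subtracted and detrended. The deposited log2 values of the series served as an alternative. Their arrays share 1 distribution, a step that the labels leave unstated. Spots flagged as outliers were left out, the spots of a probe averaged, and genes named through a RefSeq table or by the name in the file. The log2 processed signal was scaled by the 75th percentile of each array. Probes well above background on at least 3 arrays were kept and the brightest complete probe of a gene was used; the brighter probe of Atp6ap1 lacked a value on 1 array, so its other probe was taken. A model of 4 group means was fitted with limma 3.58.1 in R 4.3.3 (two-sided, Benjamini-Hochberg over 24307 genes) and tested on simulated data. Precision is set by signal over background and by the number of arrays (5 or 3 per group). Each of 4 slides held 4 arrays.

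The members and gene lists were chosen with earlier results of these data known. Every member is named, and those given in full are the ones called in any of the 5 contrasts (both populations by tissue, both tissues by population, and the difference of the YFP differences), together with Lamp1, Lamp2, Tfeb, Tfe3, Mcoln1, Atp6v0d1 and Atp6v0d2. Atp6v0a2 was added after its values were seen. From the pathway lists up to 4 called genes a list, contrast and direction could be named. Alternatives changed the background correction, scaling, filter, probe choice, samples in the fit, slide, replicate block, array weights and the arrays left out.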

Additional observations from a re-analysis of the deposited data

Results flagged for a closer look

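Of 74 combinations of a tested member and a group of 5 samples, 1 held a sample far from the others by Dixon's criterion. Tfe3 was at 3.593 in tumor YFP+ sample 23677, while the other 4 samples of that group lay between 3.299 and 3.363. Chance alone marks about 1 group in 20 by this criterion.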

How the results depend on the processing

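Under the alternatives for the 7 counts of members, no call of a member changed its direction. With array weights 1 member was called between the normal populations, 12 between tissues in YFP- macrophages and 2 between the populations averaged over tissues, and of the pathway genes 4, 57 and 3 in the same comparisons, 32 between tissues in YFP+ macrophages and 1 for the difference of the YFP differences. With only the groups compared in the fit, 3 members and 13 pathway genes were called between tissues in YFP- macrophages. Between the populations averaged over tissues, the 1 pathway gene called (Gm2a) became 2 with normexp background correction and 0 with quantile normalization, median scaling, the deposited log2 values, no filter on dim probes, the mean of all kept probes or the replicate block. Leaving out arrays, the members called ranged from 0 to 1 between the tumor populations, 0 to 1 between the normal ones, 2 to 6 and 3 to 8 between tissues in YFP+ and YFP- macrophages, 0 to 2 for the averaged YFP difference and 9 to 13 for the averaged tissue difference; the pathway genes ranged from 10 to 23, 13 to 38, 0 to 1 and 31 to 59 for the latter 4 comparisons. The cause of these changes was not tested. With slide as a block 5 members were called in each population. The numbers in the sample titles were not shown to pair the samples: deviations of same-numbered samples correlated at -0.29 to 0.31. In the fit with these numbers as a replicate block, 0, 0, 4 and 7 members were called in the comparisons by population and by tissue, as without it, and 12, against 14 without it, for the averaged tissue difference. Atp6v0d2 was called in 35 of 35 alternatives in YFP+ and 30 of 35 in YFP- macrophages, and Mcoln1 in 34 of 35 in each. By its other probe alone, read in the separate fit over all probes, Mcoln1 was not called in either population. Spots at or near background limit Atp6v1b1 and Atp6v1e2.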
